A study of Mus musculus with 12 samples.

Results

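The 10 genes described here belong to the NF-κB pathway and to the inhibitors that it switches on against itself: Nfkbia, Nfkbie, Nfkbiz, Bcl3, Tnfaip3, Birc3, Zc3h12a, Zfp36, Nfkb2 and Relb. They were picked by their symbols, matched to Ensembl identifiers with the GENCODE annotation of mouse assembly GRCm38, and make up 10 of the 54838 genes in the count table. The choice was made with earlier results of these data known, so shares and medians given for the 10 describe them and test nothing. All 10 passed the filter on low counts, which kept 15938 genes. RNA was sequenced from the ileum of 12 female C57BL/6J mice of 8 to 14 weeks, kept under specific pathogen-free conditions, with no genetic change and no TNF challenge in any group. Mice drank either normal water or 25 mM ZnSO4 for 7 days. They were then injected intraperitoneally with 200 µg of Dex (dexamethasone, a synthetic glucocorticoid that activates the glucocorticoid receptor GR) or with PBS alone, and the ileum was taken 2 h later. This gave 4 groups of 3 mice, water + PBS, water + Dex, ZnSO4 + PBS and ZnSO4 + Dex, and the comparisons ask what a week of ZnSO4, 2 h of Dex and both together did to these transcripts.

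NF-κB dimers are held in the cytoplasm by inhibitor proteins of the IκB family. Signals from TNF, IL-1 or Toll-like receptors activate kinases that mark the inhibitor for destruction, and the freed dimers enter the nucleus and switch on genes with κB sites. Among these are genes of the pathway's own brakes, such as IκBα, A20 and the RNA-degrading proteins Regnase-1 and tristetraprolin, so their transcripts are commonly read as a trace of recent NF-κB activity. In the intestine the pathway drives inflammation, but it is also needed for the survival of the epithelium, and glucocorticoids are known both to repress NF-κB targets and to induce some of the brakes directly.

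The count totals per mouse lay between 10760132 and 11827487. The groups behaved as labelled for genes known to respond to each treatment. ZnSO4 raised Mt1 and Mt2, which encode zinc-binding metallothioneins, by log2 fold changes (LFC) of 4.79 and 5.38 in PBS mice and lowered the zinc importer gene Slc39a4 (LFC -2.95). Dex raised Fkbp5, Tsc22d3 and Per1 in water mice (LFC 3.34, 3.10 and 2.07), whereas Dusp1 had an LFC of 0.74 that did not pass the test (adjusted p = 0.16). Enterocyte and Paneth cell markers, which define the ileal epithelium, were abundant in every library, at 10602 to 26228 and 6607 to 17466 CPM (counts scaled by library size) summed over 7 and 4 genes. The lowest enterocyte sum belonged to ZnSO4 + Dex replicate 2, and the other 11 libraries had at least 18418 CPM. That library also held the lowest of the 3 values of its group for 8 of the 10 genes, and other libraries stood at the edge of their groups as often. ZnSO4 + Dex replicate 3, with the lowest Paneth cell sum, was highest for 8 of the 10, water + Dex replicate 3 for 8 and ZnSO4 + PBS replicate 2 for 9, while ZnSO4 + PBS replicate 3 was lowest for 7. Values without a single library are given where they change a call. B cell markers differed even more between mice of the same group, with summed levels 4.93 to 34.5 times as high in the highest mouse as in the lowest.

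The κB sites of these genes are shown first because they are the sequence feature that the pathway itself reads. Promoter windows of 300 bases (250 before and 50 from the transcription start on), taken from RefSeq on GRCm38.p6, were at hand for 8 of the 10 genes, in 11 windows. Nfkbiz and Relb had none. A match to the NF-κB consensus on either strand was present in 7 of these windows, from 5 of the 8 genes, and in 4.50% of 32817 windows of mouse genes. The stretches below run 5′ to 3′ on the strand of the gene, from 130 bases before the start, and their capitals mark κB consensus matches.
Nfkbia, chr12:55492628-55492777, minus strand: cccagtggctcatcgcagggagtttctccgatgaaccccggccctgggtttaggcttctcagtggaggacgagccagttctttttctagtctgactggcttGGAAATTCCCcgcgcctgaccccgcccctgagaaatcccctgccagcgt
Nfkbie, chr17:45555570-45555719, plus strand: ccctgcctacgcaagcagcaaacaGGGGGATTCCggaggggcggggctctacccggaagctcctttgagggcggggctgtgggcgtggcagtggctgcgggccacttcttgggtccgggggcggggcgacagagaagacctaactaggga
Tnfaip3, chr10:19015391-19015540, minus strand: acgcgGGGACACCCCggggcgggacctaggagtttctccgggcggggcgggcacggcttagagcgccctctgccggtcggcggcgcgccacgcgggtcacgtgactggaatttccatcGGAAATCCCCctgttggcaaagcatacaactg
Nfkb2, chr19:46304607-46304756, plus strand: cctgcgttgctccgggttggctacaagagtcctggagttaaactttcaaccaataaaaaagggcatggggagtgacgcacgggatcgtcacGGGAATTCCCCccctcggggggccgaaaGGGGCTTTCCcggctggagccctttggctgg
Bcl3, chr7:19822736-19822885, minus strand: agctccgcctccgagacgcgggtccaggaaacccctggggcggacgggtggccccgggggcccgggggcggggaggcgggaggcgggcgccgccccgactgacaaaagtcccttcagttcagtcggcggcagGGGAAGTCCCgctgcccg

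Counting the start base as position 0, the κB match of Nfkbia began at position -29, that of Nfkbie at -106 and that of Bcl3 at 2. Tnfaip3 had matches at -125 and -12, and Nfkb2 had overlapping matches at -39 and -38 and another at -11. Each of the 3 windows of Nfkb2 had a match. The windows of its starts 2 and 3 overlap, and the match at 10 in the former and at -225 in the latter are the same site. That site is thus counted in 2 of the windows with a match. No κB consensus match lay in the windows of Zc3h12a, Zfp36 or Birc3. The palindromic GR motif GNACANNNTGTNC was in none of the 11 windows and in 0.475% of all windows. The STAT motif TTCNNNGAA (GAS) was in windows of Zfp36 and Nfkb2 and in 8.29% of all windows, and the interferon motif GAAANNGAAA (the ISRE core) in none of the 11 and in 3.43% of all. These motifs were searched on both strands, and none of their matches in these windows overlapped a κB match. Such matches describe the letters in these windows only.

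**Figure D1:**
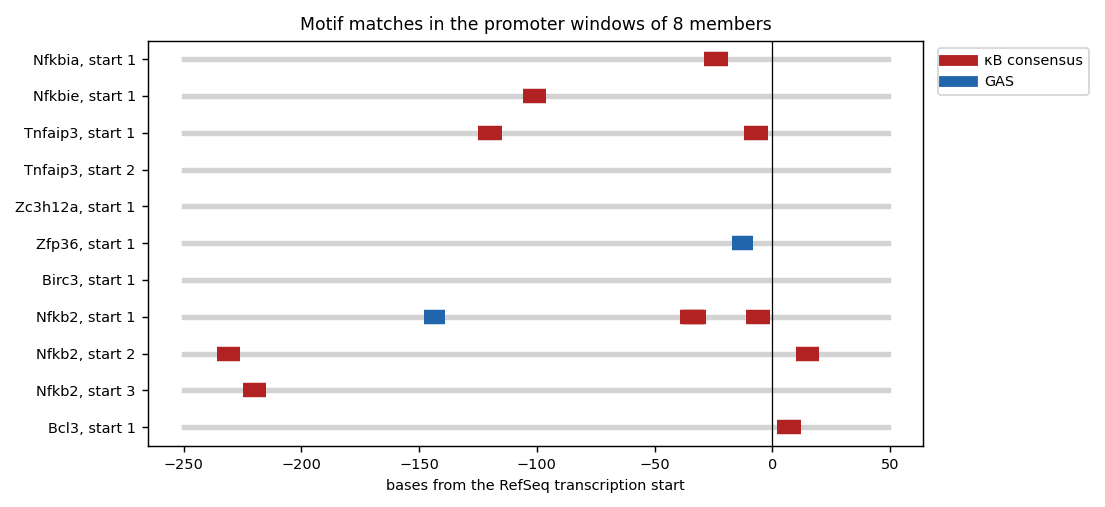
Positions of motif matches in the 11 RefSeq promoter windows of 8 genes, in bases from the transcription start (black line); grey bars are the windows, red blocks κB consensus matches and blue blocks GAS matches. The κB matches nearest the start are those of Nfkbia, Tnfaip3, Nfkb2 and Bcl3, while Zc3h12a, Zfp36 and Birc3 have none.

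ZnSO4 lowered Nfkbiz and Zc3h12a, and Dex lowered Bcl3 most of all. In PBS mice, ZnSO4 reduced 2 of the 10 genes, Nfkbiz and Zc3h12a, and raised none. Calls required an adjusted p under 0.05 together with a change of more than 0.8 log2 units either way, and under this rule ZnSO4 reduced 0.954% and raised 0.747% of all genes tested. The median LFC of the 10 genes was -0.46, against -0.013 over all genes. In Dex mice, only Zc3h12a of the 10 was reduced by ZnSO4 and none was raised (1.20% and 0.696% of all genes), with a median LFC of -0.41 against 0.007. DESeq2 likewise raised none of the 10 in either comparison, and no gene of the 10 had an unadjusted p under 0.05 for a rise.

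Under Dex, genes of the set changed in both directions. In water mice it reduced Bcl3 and Zc3h12a (2 of 10, against 1.64% of all genes), where DESeq2 reduced 3, with Nfkbie added. None of the 10 was raised (against 2.79%), by edgeR or by DESeq2, although 1 gene, Nfkbia, had an unadjusted p under 0.05 for a rise. In ZnSO4 mice Dex raised Nfkbia and Zfp36 (2 of 10, against 3.41%) and reduced Bcl3 (1 of 10, against 2.40%). Mice that received both treatments had lower Bcl3, Zc3h12a, Nfkbiz and Nfkbie than water + PBS mice (4 of 10, against 4.56%). None of the 10 was called higher in them (against 5.10%), and DESeq2 called none either, while 2 had an unadjusted p under 0.05 for a rise. Their median LFC in this comparison was -0.78, against -0.005 over all genes. In bulk tissue, fewer cells of a type and less RNA per cell cannot be told apart, which holds for every difference below.

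**Figure D2:**
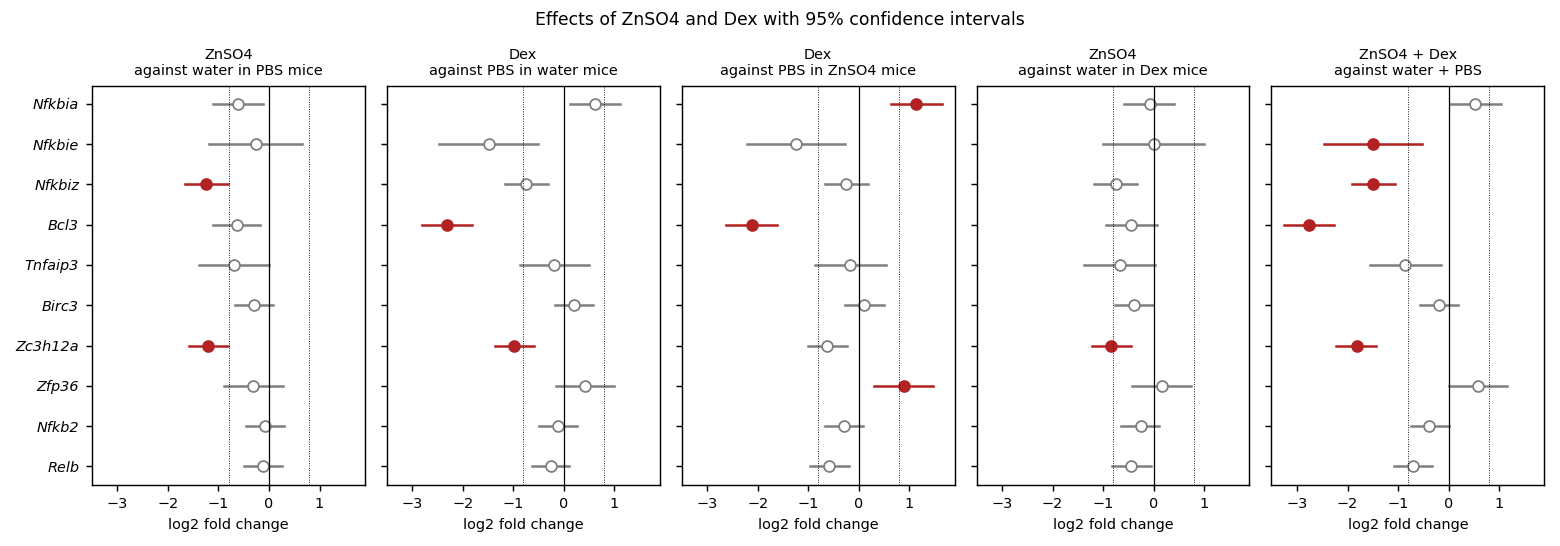
LFC (points) with 95% confidence intervals (lines) of the 10 genes in 5 comparisons of 3 mice against 3, from 1 edgeR model of all 12 libraries; filled red points passed the test and the cut-off of 0.8 (dotted lines), open grey points did not. Bcl3 lies at -2.31 and -2.12 in the Dex comparisons, Nfkbiz and Zc3h12a at -1.25 and -1.20 under ZnSO4 in PBS mice, and Nfkbia at 1.14 under Dex in ZnSO4 mice.

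Nfkbia (ENSMUSG00000021025, chromosome 12, 55489410 to 55492647) encodes IκBα, the inhibitor that is destroyed and resynthesised in each round of NF-κB activation. Levels per mouse are normalised counts, that is counts scaled to a library of 11377723 reads. Nfkbia was at 1812, 1836 and 1066 in the water + PBS mice, 2567, 2051 and 2607 in water + Dex, 927, 1308 and 852 in ZnSO4 + PBS and 2182, 1848 and 2797 in ZnSO4 + Dex. All 6 Dex mice were above all 6 PBS mice, with the narrowest gap between 1836 and 1848. Dex raised it in ZnSO4 mice from 1029 ± 244 to 2276 ± 481 (mean ± SD, n = 3), a 2.21-fold rise (LFC 1.14, SE 0.23, adjusted p = 0.0063), and this call held in all 20 alternative fits. In water mice the LFC under Dex was 0.62 (95% interval 0.12 to 1.12, adjusted p = 0.13). For ZnSO4 the LFC was -0.61 in PBS mice (interval -1.11 to -0.11, adjusted p = 0.16) and -0.08 in Dex mice (interval -0.58 to 0.41, adjusted p = 0.89), with overlapping groups in both.

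Nfkbie (ENSMUSG00000023947, chromosome 17, 45555703 to 45563169) encodes IκBε, a further cytoplasmic inhibitor, and had the lowest level of the 10 genes. It had 87.6, 280 and 124 normalised counts in water + PBS, 80.3, 62.6 and 31.3 in water + Dex, 108, 188 and 113 in ZnSO4 + PBS and 60.1, 43.2 and 70.5 in ZnSO4 + Dex. Every Dex mouse was below every PBS mouse, but the highest water + PBS mouse was 3.2 times as high as the lowest. Its LFC was -1.49 for Dex in water mice (SE 0.44, adjusted p = 0.057) and -1.24 in ZnSO4 mice (SE 0.44, adjusted p = 0.093), and neither passed the test. In water mice the effect passed without water + PBS replicate 1 (LFC -1.8, adjusted p = 0.030). Without water + PBS replicate 2, the highest mouse, it was weaker (LFC -0.86, adjusted p = 0.23). In ZnSO4 mice the effect passed without water + PBS replicate 2 (LFC -1.24, adjusted p = 0.035). With single libraries left out, the LFC there ran from -1.4 to -0.94, and the adjusted p reached 0.27. The difference between ZnSO4 + Dex and water + PBS passed the test (LFC -1.5, SE 0.44, adjusted p = 0.030). That call was lost in 4 of the 20 alternative fits besides the one with B cell markers given below: adjusted p was 0.14 without water + PBS replicate 2 (LFC -0.87), 0.081 and 0.096 without ZnSO4 + Dex replicates 1 and 2, and 0.053 with only these groups in the fit. ZnSO4 alone gave LFC of -0.26 in PBS mice (interval -1.18 to 0.66) and 0.00 in Dex mice (interval -1.01 to 1.0).

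Within groups, Nfkbie rose with a score of B cell markers. In all 4 groups the mouse with the highest B cell marker score (the mean log2 CPM of 10 B cell genes such as Ms4a1, centred over the 12 libraries) also had the most Nfkbie. Within groups, Nfkbie rose by 0.23 log2 units per log2 unit of the score (SE 0.05, adjusted p = 0.026), and it was the only one of the 10 genes to pass this test, against 2.77% of all genes with a rise and 0.195% with a fall. The slope call was lost without water + PBS replicates 1 or 2, water + Dex replicates 1 or 3 or ZnSO4 + PBS replicate 2, with slopes of 0.18 to 0.25 and adjusted p of 0.058 to 0.14. Without water + Dex replicate 3, Nfkb2 passed in its place (slope 0.10). In the ZnSO4 groups the mice below the top one did not keep the order of the score. Replicate 2 of water + PBS and of ZnSO4 + PBS was also highest of its group for T cells (171 and 101 CPM). The same held for macrophages and dendritic cells (583 and 430) and M cells (166 and 123), but not for all of these in the Dex groups. Which cells the slope belongs to was not tested. None of the 10 B cell genes was at 0 in all libraries of a group, and their summed level was 35.8 to 715 CPM in water + PBS, 22.1 to 266 in water + Dex, 15.5 to 534 in ZnSO4 + PBS and 16.4 to 80.8 in ZnSO4 + Dex. Their median LFC under Dex was -1.56 in water mice and -2.66 in ZnSO4 mice. Under ZnSO4 it was -0.575 in PBS mice and -1.61 in Dex mice, and with both treatments -3.175. None of these B cell genes was called in these comparisons, against 0.696% to 5.10% of all genes per comparison and direction. With the score as a covariate, the Nfkbie LFC was -1.06 for Dex in water mice (adjusted p = 0.036), -0.80 for Dex in ZnSO4 mice (adjusted p = 0.087) and -0.77 between ZnSO4 + Dex and water + PBS (adjusted p = 0.10). For Nfkb2 and Birc3 the slopes were 0.07 and 0.07 (adjusted p = 0.25 for each), and for Zc3h12a 0.01 (adjusted p = 0.94).

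**Figure D3:**
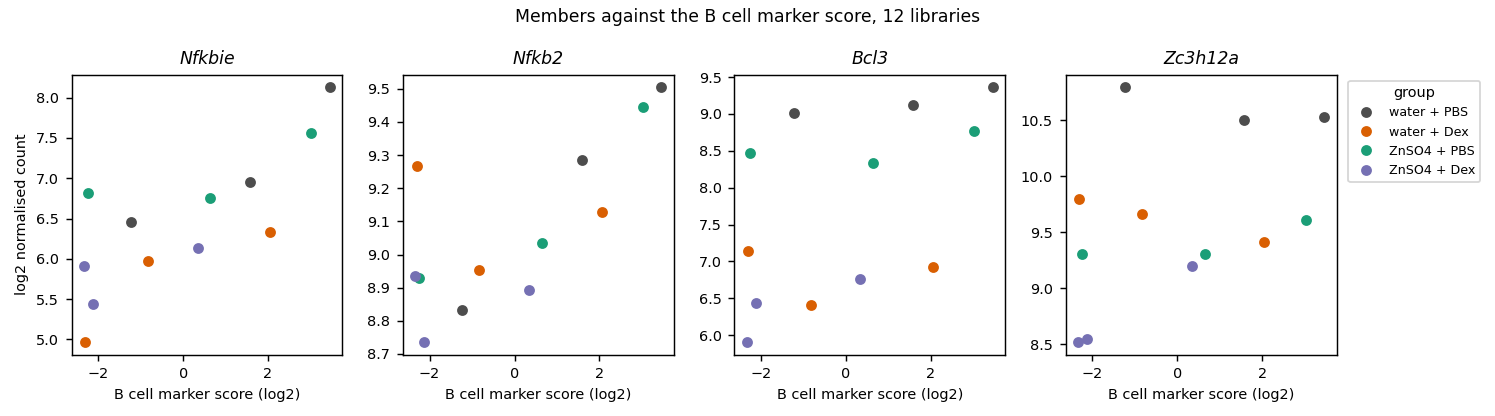
log2 normalised counts of 4 genes (y axis) against the B cell marker score (x axis, log2), 1 point per mouse, coloured by group. Within groups Nfkbie rises with the score (slope 0.23), and the slopes of Nfkb2 (0.07), Bcl3 (0.06) and Zc3h12a (0.01) did not pass the test.

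Nfkbiz (ENSMUSG00000035356, chromosome 16, 55811375 to 55838899) encodes IκBζ, an atypical nuclear IκB protein that helps to switch on a subset of secondary NF-κB targets. Its normalised counts were 1872, 1738 and 1631 in water + PBS, 1051, 1004 and 1082 in water + Dex, 728, 870 and 610 in ZnSO4 + PBS and 504, 491 and 867 in ZnSO4 + Dex. The water + PBS mice were clearly above all other mice. ZnSO4 lowered it 2.37-fold in PBS mice, from 1747 ± 121 to 736 ± 131 (LFC -1.25, SE 0.19, adjusted p = 0.0054), and this was found in all 20 alternative fits. In Dex mice, ZnSO4 gave an LFC of -0.75 (SE 0.20, adjusted p = 0.053) with no overlap between the groups. Without ZnSO4 + Dex replicate 3, the highest mouse of its group, the LFC was -1.07 (adjusted p = 0.0029). Leaving out other single libraries gave an LFC as weak as -0.61 and an adjusted p as high as 0.16. Under Dex in water mice the LFC of Nfkbiz was -0.74, smaller than the cut-off (SE 0.19, adjusted p = 0.031). Its adjusted p was 0.059 to 0.11 without any one of the 6 libraries compared and 0.058 in the fit with a replicate block. In ZnSO4 mice the LFC under Dex was -0.25 (interval -0.67 to 0.18). With both treatments the level was 2.82-fold below that of water + PBS (LFC -1.49, SE 0.20, adjusted p = 2.7e-04).

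Bcl3 (ENSMUSG00000053175, chromosome 7, 19808462 to 19822770) encodes the other atypical nuclear IκB of the set, which binds p50 and p52 dimers on DNA and modulates transcription from them. Its normalised counts were 517, 658 and 556 in water + PBS and 122, 85.3 and 142 in water + Dex. In the ZnSO4 mice they were 322, 436 and 354 after PBS and 60.1, 86.5 and 109 after Dex. The highest Dex mouse was thus far below the lowest PBS mouse. Dex lowered Bcl3 4.96-fold in water mice (LFC -2.31, SE 0.22, adjusted p = 5.6e-05) and 4.35-fold in ZnSO4 mice (LFC -2.12, SE 0.23, adjusted p = 9.3e-05), the largest effects among the 10 genes, and both calls held in all 20 alternative fits. For ZnSO4 the LFC was -0.64 in PBS mice, whose groups did not overlap (interval -1.10 to -0.18, adjusted p = 0.11), and -0.45 in Dex mice (interval -0.95 to 0.06, adjusted p = 0.33). Mice with both treatments had 6.77-fold less Bcl3 than water + PBS mice (LFC -2.76, SE 0.23, adjusted p = 1.3e-05). Of its exonic bases, 6.51% overlap exons of Gm16175 on the opposite strand, and the strand setting of the counting is not given in the sources used here.

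**Figure D4:**
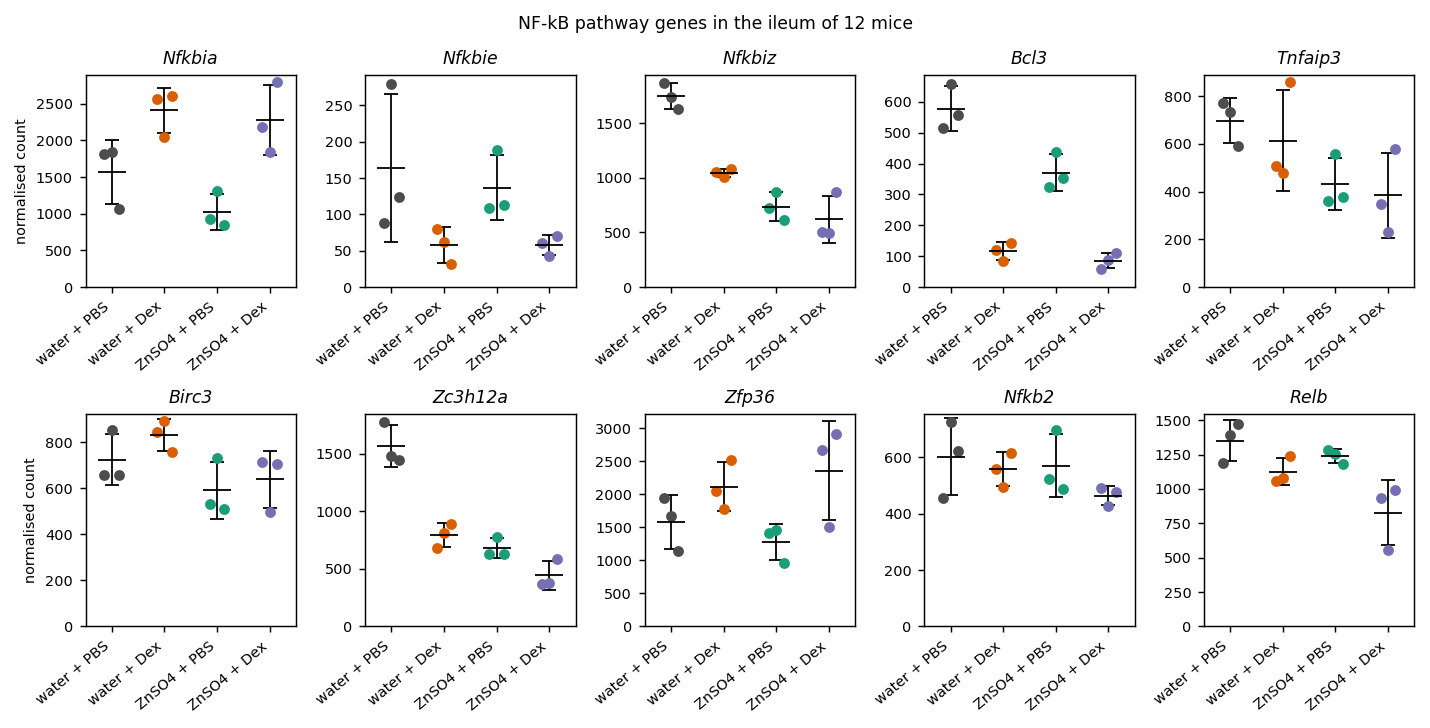
Normalised counts of the 10 genes in each of the 12 mice (coloured points, 3 per group), with group mean and SD (black), on axes that start at 0. Bcl3 lies between 60.1 and 142 in the 6 Dex mice and between 322 and 658 in the 6 PBS mice, and Nfkbiz and Zc3h12a are highest in the 3 water + PBS mice.

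Tnfaip3 and Birc3 act on ubiquitin chains upstream of the IκB kinases. Tnfaip3 (ENSMUSG00000019850, chromosome 10, 19000910 to 19015657) encodes A20, which edits these chains and ends the signal. It was at 770, 732 and 591 normalised counts in water + PBS, 506, 476 and 858 in water + Dex, 361, 559 and 377 in ZnSO4 + PBS and 347, 230 and 580 in ZnSO4 + Dex. Each ZnSO4 mouse after PBS was below each water mouse after PBS, whereas the Dex groups overlapped. The LFC for ZnSO4 was -0.69 in PBS mice (SE 0.32, adjusted p = 0.25) and -0.67 in Dex mice (SE 0.32, adjusted p = 0.28), and neither passed the test. For Dex it was -0.19 in water mice (interval -0.87 to 0.50) and -0.17 in ZnSO4 mice (interval -0.86 to 0.53). Between ZnSO4 + Dex and water + PBS the LFC was -0.86 (SE 0.32, adjusted p = 0.074). It passed with DESeq2 (adjusted p = 0.026), with all genes of at least 1 count (0.038) and without ZnSO4 + Dex replicate 3 (0.013). Without ZnSO4 + Dex replicate 2 the LFC was -0.59 (adjusted p = 0.20).

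Birc3 (ENSMUSG00000032000, chromosome 9, 7848699 to 7873186) encodes cIAP2, a ubiquitin ligase of the TNF receptor complex that restrains both cell death and the non-canonical pathway. Its normalised counts ran from 660 to 853 in water + PBS, 756 to 894 in water + Dex, 511 to 733 in ZnSO4 + PBS and 496 to 717 in ZnSO4 + Dex. No comparison passed the test, with LFC between -0.38 (ZnSO4 in Dex mice, interval -0.76 to -0.01, adjusted p = 0.25) and 0.20 (Dex in water mice, interval -0.17 to 0.58, adjusted p = 0.54).

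Zc3h12a and Zfp36 encode proteins that shorten the life of inflammatory mRNAs. Zc3h12a (ENSMUSG00000042677, chromosome 4, 125118423 to 125127840) encodes Regnase-1, an endoribonuclease that cleaves transcripts such as that of Il6. It was at 1775, 1477 and 1446 normalised counts in water + PBS, 680, 808 and 886 in water + Dex, 633, 781 and 632 in ZnSO4 + PBS and 367, 375 and 587 in ZnSO4 + Dex. No mouse with a treatment came near the water + PBS mice, and the ZnSO4 + Dex mice were the lowest. ZnSO4 lowered it 2.30-fold in PBS mice (LFC -1.20, SE 0.18, adjusted p = 0.0039) and Dex 1.98-fold in water mice (LFC -0.98, SE 0.18, adjusted p = 0.0038), and both calls held in all 20 alternative fits. ZnSO4 lowered it 1.79-fold in Dex mice as well (LFC -0.84, SE 0.18, adjusted p = 0.022). This last call was lost without water + Dex replicates 2 or 3 (LFC -0.81 and -0.75, adjusted p = 0.085 and 0.097), without ZnSO4 + Dex replicates 1 or 2 (-0.72 and -0.73, adjusted p = 0.086 and 0.075), with only these groups in the fit (adjusted p = 0.060) and with upper-quartile scaling, where the LFC was -0.80. In ZnSO4 mice the LFC under Dex was -0.62, smaller than the cut-off (SE 0.18, adjusted p = 0.039). It was -0.88 (adjusted p = 0.0025) without ZnSO4 + Dex replicate 3, and without any other of the 6 libraries compared it was -0.5 to -0.68 with an adjusted p of 0.059 to 0.14. Both treatments together left 3.54-fold less than water + PBS (LFC -1.82, SE 0.18, adjusted p = 3.8e-05).

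Zfp36 (ENSMUSG00000044786, chromosome 7, 28376784 to 28380253) encodes tristetraprolin, which binds AU-rich elements in mRNAs such as Tnf and triggers their decay. Its normalised counts were 1939, 1666 and 1140 in water + PBS, 2049, 1779 and 2511 in water + Dex, 1418, 1455 and 955 in ZnSO4 + PBS and 2663, 1503 and 2909 in ZnSO4 + Dex. The Dex groups were higher on average, but the mice of the water groups overlapped and the ZnSO4 groups were separated only by the step from 1455 to 1503. Dex raised it 1.85-fold in ZnSO4 mice (LFC 0.89, SE 0.26, adjusted p = 0.046), close to the threshold. The call held in 6 of 20 alternative fits, and over all of them the LFC lay between 0.70 and 1.13 and the adjusted p between 0.0066 and 0.15. Leaving out 1 library kept the call only for ZnSO4 + Dex replicate 2 (LFC 1.13, adjusted p = 0.0084) and water + PBS replicate 3 (LFC 0.88, adjusted p = 0.038). Without any one of the other 10 libraries it was lost, at an LFC of 0.70 to 0.99 and an adjusted p of 0.054 to 0.15. In water mice the LFC under Dex was 0.42 (interval -0.16 to 0.99, adjusted p = 0.39). The LFC between ZnSO4 + Dex and water + PBS was 0.58 (adjusted p = 0.14), and 0.82 (adjusted p = 0.029) without ZnSO4 + Dex replicate 2. Leaving out other single libraries gave an LFC as low as 0.39 and an adjusted p as high as 0.36. ZnSO4 gave -0.31 in PBS mice (interval -0.89 to 0.27) and 0.16 in Dex mice (interval -0.42 to 0.73). Exons of Gm44710 on the opposite strand overlap 3.60% of its exonic bases.

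Nfkb2 and Relb encode the subunits of the non-canonical NF-κB dimer. Nfkb2 (ENSMUSG00000025225, chromosome 19, 46304320 to 46312385), the gene of p100 and its processed form p52, ranged from 456 to 726 normalised counts in water + PBS, 496 to 616 in water + Dex, 487 to 697 in ZnSO4 + PBS and 427 to 489 in ZnSO4 + Dex. It passed no test, and its LFC lay between -0.38 for both treatments together (interval -0.75 to 0.00, adjusted p = 0.14) and -0.08 for ZnSO4 in PBS mice (interval -0.45 to 0.29). Exons of AC114539.1 and Psd on the opposite strand overlap 18.1% of its exonic bases.

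Relb (ENSMUSG00000002983, chromosome 7, 19606217 to 19629438), the partner of p52, was at 1188, 1396 and 1474 normalised counts in water + PBS, 1059, 1080 and 1242 in water + Dex, 1284, 1257 and 1185 in ZnSO4 + PBS and 933, 559 and 993 in ZnSO4 + Dex. The ZnSO4 + Dex mice were below all others. The LFC of Relb was -0.58 under Dex in ZnSO4 mice (SE 0.17, adjusted p = 0.045) and -0.71 for both treatments together against water + PBS (SE 0.17, adjusted p = 0.013), each smaller than the cut-off. With only the groups compared in the fit, the adjusted p was 0.12 and 0.057. With single libraries left out it was 0.024 to 0.12 for Dex in ZnSO4 mice, and under 0.05 there only without ZnSO4 + Dex replicates 2 or 3. Without ZnSO4 + Dex replicate 2, its lowest mouse, these LFC were -0.37 (adjusted p = 0.042) and -0.49 (adjusted p = 0.0067). In the comparison with water + PBS, leaving out ZnSO4 + Dex replicates 1 or 3 brought Relb past the cut-off (LFC -0.80 and -0.86, adjusted p = 0.021 and 0.0082). Dex in water mice gave an LFC of -0.26 (interval -0.64 to 0.11) and ZnSO4 in PBS mice -0.12 (interval -0.50 to 0.25).

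The effect of one treatment was not shown to depend on the other. In the test of the interaction, edgeR called 0 of 15938 genes (0%), with 794 genes at an unadjusted p under 0.05 but none of the 10 among them, and DESeq2 called 6 genes, none of the 10. The interaction LFC of the 10 genes lay between -0.32 (Relb) and 0.53 (Nfkbia), with adjusted p of 0.95 or more. The intervals were wide, for example -0.11 to 1.09 for Nfkbiz and -0.18 to 1.23 for Nfkbia.

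Since no interaction was called, each treatment was also read as its mean effect over both levels of the other, a comparison chosen after seeing the data that uses 6 mice against 6 in the same model. At an adjusted p under 0.05 alone, Dex raised Nfkbia (LFC 0.88, SE 0.16, adjusted p = 0.0022) and Zfp36 (LFC 0.65, SE 0.19, adjusted p = 0.027), against 10.4% of all genes raised. On the same terms it lowered 5 of the 10 genes, against 11.2% of all genes: Bcl3 (LFC -2.22, SE 0.16, adjusted p = 2.0e-06), Nfkbie (LFC -1.37, SE 0.31, adjusted p = 0.0084), Zc3h12a (LFC -0.80, SE 0.13, adjusted p = 6.6e-04), Nfkbiz (LFC -0.49, SE 0.14, adjusted p = 0.023) and Relb (LFC -0.42, SE 0.12, adjusted p = 0.029). ZnSO4 lowered Zc3h12a (LFC -1.02, SE 0.13, adjusted p = 4.2e-04), Nfkbiz (LFC -1.0, SE 0.14, adjusted p = 8.5e-04) and Bcl3 (LFC -0.54, SE 0.16, adjusted p = 0.042), against 6.52% of all genes, and raised none of the 10, against 6.24%. Tnfaip3 and Birc3 had LFC of -0.68 and -0.34 under ZnSO4 (adjusted p = 0.068 and 0.091). Tnfaip3, Birc3 and Nfkb2 passed neither test. With the B cell marker score in the model, Nfkbiz and Relb no longer passed for Dex (adjusted p = 0.064 and 0.077) and Nfkbie still did (LFC -0.93, adjusted p = 0.0078).

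Some markers of other cells moved with ZnSO4. T cell markers, summed over 9 genes, stood at 88.6 to 171 CPM in water + PBS and 82.3 to 109 in water + Dex. In ZnSO4 + PBS they stood at 41.1 to 101 CPM and in ZnSO4 + Dex at 45.4 to 47.0. Of the 9, ZnSO4 reduced 1 in PBS mice (against 0.954% of all genes) and 3 in Dex mice (against 1.20%). With both treatments 7 were lower than in water + PBS (against 4.56%). Of 7 markers of macrophages and dendritic cells, ZnSO4 reduced Itgam alone, in PBS and in Dex mice (against the same 0.954% and 1.20%). Their summed level was 286 to 583 CPM in water + PBS and 240 to 430 in ZnSO4 + PBS. After Dex it was 284 to 390 CPM in water mice and 262 to 288 in ZnSO4 mice. Of 4 goblet cell markers, Muc2 alone was raised by ZnSO4 (LFC 0.88 in PBS mice and 0.83 in Dex mice). Among all genes 0.747% and 0.696% were raised, and the median LFC of the 4 markers was 0.28 and 0.29. None of the T cell or macrophage markers was at 0 in all libraries of a group. The part of these cells in the lower Nfkbiz and Zc3h12a was not tested. Beside the Dex effects, Kdr was the only one of 3 endothelial markers called lower under Dex. It fell in water mice (LFC -0.96, SE 0.12, adjusted p = 3.7e-04) and in ZnSO4 mice (LFC -0.95, SE 0.12, adjusted p = 3.0e-04). Among all genes 1.64% and 2.40% were reduced, and the median LFC of the 3 markers was -0.34 in each. These markers summed to 86.4 to 118 CPM in water + PBS and 69.7 to 74.8 in water + Dex. In ZnSO4 + PBS they summed to 107 to 112 CPM and in ZnSO4 + Dex to 78.2 to 88.5. The 4 M cell markers had a median LFC of -1.29 under Dex in water mice. There Tnfaip2 alone passed the test (LFC -0.92, SE 0.21, adjusted p = 0.014), against 1.64% of all genes reduced. In ZnSO4 mice their median LFC was -1.0 and none passed. Tnfaip2 is also on the list of NF-κB targets. The M cell sums were 77.6 to 166 CPM in water + PBS, 57.3 to 84.7 in water + Dex, 53.2 to 123 in ZnSO4 + PBS and 59.3 to 65.3 in ZnSO4 + Dex. Neutrophil markers were rare, with sums of 1.55 to 8.11 CPM over all libraries, and 2 of the 4 were tested. Both fell with both treatments against water + PBS, as did 4.56% of all genes. Csf3r had an LFC of -1.14 (SE 0.31, adjusted p = 0.022), and S100a9 went from 1 to 22 reads per library to 0 to 2 (adjusted p = 0.0495). Of the 4 neutrophil genes, 1 was at 0 in all libraries of each group except water + Dex. The part of these cells in the lower Bcl3, Nfkbie, Nfkbiz and Zc3h12a was not tested.

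Levels can be compared between genes only per length, as TPM, which scale each count by the gene's exonic bases and by the library. In water + PBS mice Nfkbia was highest at 212 ± 57.5 TPM (SD, n = 3), followed by Zc3h12a (118 ± 10.3), Zfp36 (98.8 ± 23.5), Relb (75.9 ± 10.2), Nfkbiz (75.7 ± 3.55), Bcl3 (50.8 ± 7.54), Birc3 (31.5 ± 5.39), Nfkb2 (28.7 ± 7.15), Tnfaip3 (21.0 ± 2.53) and Nfkbie (11.79 ± 7.56). The ranges of the mice were separate between Nfkbia and Zc3h12a, between Nfkbiz and Bcl3 and between Bcl3 and Birc3, and overlapped between all other neighbours in this order. The order shifted with treatment. In ZnSO4 + Dex mice the mRNA-decay gene Zfp36 stood at 147 ± 44.4 TPM and Zc3h12a at 33.5 ± 9.22, where in water + PBS their ranges had overlapped. Bcl3, above Birc3, Nfkb2 and Tnfaip3 in water + PBS, was below all of them on average in both Dex groups (9.39 ± 2.13 TPM in water + Dex and 7.51 ± 2.18 in ZnSO4 + Dex).

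**Figure D5:**
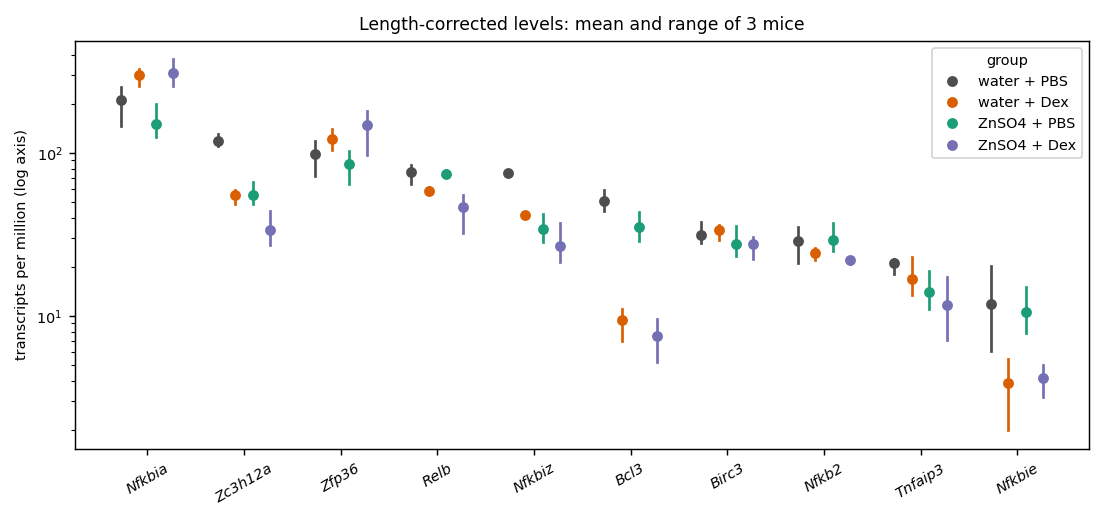
TPM levels (log axis) of the 10 genes in the 4 groups, with points for the mean and lines from the lowest to the highest of 3 mice, ordered by the water + PBS mean. Nfkbia stays highest in each group (150 to 307 TPM on average), and Bcl3 drops from 50.8 TPM in water + PBS to 9.39 and 7.51 in the Dex groups.

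The rest of the pathway was described from 7 lists with 113 genes, of which 109 were tested. The kinases were 11 genes, among them Chuk, Ikbkb and Ikbkg of the IκB kinase complex. The other subunits and IκB proteins were 7 genes, among them Rela, Nfkb1 and Rel. Neither list had a called gene in any of the 5 comparisons, by edgeR or DESeq2. Of all genes 0.696% to 5.10% were called per comparison and direction, so lists this short could well hold none. At most 3 kinases and 4 subunits had an unadjusted p under 0.05, against 3048 to 5734 of the 15938 genes tested. Over all 7 lists ZnSO4 reduced 4 genes in PBS mice (3.67% of the 109, against 0.954% of all genes) and 5 in Dex mice (4.59%, against 1.20%). DESeq2 gave 7 and 5. Neither tool called a rise under ZnSO4, with 1 and 3 genes at an unadjusted p under 0.05 for one. Dex raised 3 in water mice (2.75%, against 2.79%) and 5 in ZnSO4 mice (4.59%, against 3.41%), shares near those of all genes. It reduced 8 in water mice (7.34%, against 1.64%) and 10 in ZnSO4 mice (9.17%, against 2.40%). With both treatments, 24 were lower than in water + PBS (22%, against 4.56%) and 4 higher (3.67%, against 5.10%), and the median LFC of these 109 genes was -0.40. The lists were chosen with results of these data known, so these shares describe the lists and test nothing.

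Among the ligands (11 genes), ZnSO4 lowered Il18, a cytokine of the IL-1 family made by the epithelium, in PBS mice, where normalised counts went from 358 ± 70.0 to 140 ± 46.8 (LFC -1.35, SE 0.21, adjusted p = 0.0047) and in Dex mice (LFC -1.25, SE 0.20, adjusted p = 0.0054). Dex raised Il18 in ZnSO4 mice (LFC 0.87, SE 0.21, adjusted p = 0.015). Il1b, the main inducible IL-1 cytokine, fell under Dex from 75.0 ± 26.9 to 5.10 ± 2.73 in water mice (LFC -3.85, SE 0.43, adjusted p = 1.6e-04) and from 30.6 ± 10.1 to 5.45 ± 1.59 in ZnSO4 mice (LFC -2.46, SE 0.44, adjusted p = 0.0029). Tnf itself was rare, with 22 to 55 reads per library in water + PBS and 3 to 11 in water + Dex (LFC -2.35, SE 0.61, adjusted p = 0.032). In mice with both treatments 6 of the 11 ligand genes were reduced (54.5%, against 4.56% of all genes).

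Of 16 receptors, Tlr2 was lowered by ZnSO4 in PBS mice (LFC -0.87, SE 0.19, adjusted p = 0.029) and in Dex mice (LFC -1.04, SE 0.20, adjusted p = 0.014), as was Tlr1 in Dex mice (LFC -1.45, SE 0.28, adjusted p = 0.014). These encode Toll-like receptors for bacterial lipoproteins. In ZnSO4 mice Dex raised the IL-1 receptor gene Il1r1 (LFC 1.0, SE 0.17, adjusted p = 0.0020) and lowered Tnfrsf11a, the gene of the receptor RANK (LFC -1.16, SE 0.13, adjusted p = 1.3e-04). Of the 23 adaptors and ubiquitin ligases, Dex lowered Irak2, an IL-1 receptor-associated kinase family member, in ZnSO4 mice (LFC -1.04, SE 0.14, adjusted p = 4.8e-04), and 4 genes were lower with both treatments (17.4%, against 4.56% of all genes).

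The other feedback inhibitors (19 genes) did not move as a block. Dex raised Tnip1, which encodes a partner of A20, in water mice, where normalised counts went from 1136 ± 145 to 2372 ± 172 (LFC 1.06, SE 0.15, adjusted p = 0.0010). It lowered the tristetraprolin relative Zfp36l1 (LFC -0.88 in water mice and -0.82 in ZnSO4 mice) and, in ZnSO4 mice, Tnfaip8l2 (LFC -1.20, SE 0.19, adjusted p = 0.0013) and the rare Tnip3 (LFC -2.29, SE 0.69, adjusted p = 0.048), which had 0 to 5 reads per library in ZnSO4 + Dex. ZnSO4 changed none of these 19 genes in PBS or Dex mice by either tool. It reduced 0.954% and 1.20% and raised 0.747% and 0.696% of all genes, so a list of 19 could well hold none. An unadjusted p under 0.05 was found for 2 of the 19 in PBS mice, against 3161 of the 15938 genes tested. In Dex mice it was found for 7, of which 6 were lower, against 3048 of the 15938.

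Of 26 known NF-κB target genes 22 were tested, and under Dex some fell and others rose. In water mice Dex reduced 5 (22.7%, against 1.64% of all genes) and raised 2 (9.09%, against 2.79%). In ZnSO4 mice it reduced 3 and raised 3 (13.6% each, against 2.40% and 3.41%). The median LFC was -0.44 and -0.35. With both treatments 7 were lower than in water + PBS (31.8%, against 4.56%) and 3 were higher (13.6%, against 5.10%). Lcn2, which encodes the iron-sequestering protein lipocalin-2, rose from 43.4 ± 15.7 to 1293 ± 108 normalised counts in water mice (LFC 4.90, SE 0.24, adjusted p = 5.2e-07) and from 23.8 ± 7.54 to 755 ± 87.2 in ZnSO4 mice (LFC 4.98, SE 0.25, adjusted p = 5.6e-07). Gadd45b, a stress-response gene, rose as well (LFC 2.06 in water mice, adjusted p = 6.9e-04, and 2.64 in ZnSO4 mice, adjusted p = 1.1e-04). The chemokine genes Ccl2 and Cxcl5 were at 13 to 61 and 14 to 33 reads per library in water + PBS, at 0 to 1 and 0 to 3 in water + Dex and at 0 in all ZnSO4 + Dex libraries. Under ZnSO4 the inducible nitric oxide synthase gene Nos2 fell from 4649 ± 799 to 1314 ± 398 in PBS mice (LFC -1.82, SE 0.32, adjusted p = 0.010) and the chemokine gene Ccl5 from 429 ± 122 to 192 ± 32.7 (LFC -1.16, SE 0.28, adjusted p = 0.041), and both also fell in Dex mice (LFC -2.20 and -1.52).

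The genes whose log2 CPM was most like that of each member over the 12 libraries are given by Pearson's r as a description, since these libraries share the treatments. Ly96, the gene of the TLR4 co-receptor MD-2, was the closest to both Nfkbiz (r = 0.966) and Zc3h12a (r = 0.963). The next for Nfkbiz were Sla2 and Zfp971 (0.944 and 0.943), and for Zc3h12a Sbno2 and Fam118b (0.958 and 0.954). Bcl3 was closest to Zfp710, Map3k4 and Clip2 (0.975, 0.967 and 0.966), Nfkbia to Pim3, Spsb1 and Lrch1 (0.940, 0.939 and 0.936), and Nfkbie to Elk3, Shisa3 and Gimap9 (0.969, 0.956 and 0.951). For Relb these were Mfhas1, Gpat3 and Mall (0.959, 0.958 and 0.957), for Nfkb2 Git2, Cd40lg and Mknk1 (0.959, 0.939 and 0.930), for Birc3 Rapgef6, Ankrd44 and Jak1 (0.925, 0.917 and 0.897) and for Zfp36 Gm5421 and Ltb4r1 (0.910 and 0.893). Tnfaip3 had the least close neighbours, Slc44a4, Zswim4 and 2010003K11Rik (0.868, 0.868 and 0.865).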

How the data were processed

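Stranded libraries from ileum RNA were sequenced single-end. According to the methods and the submitters' processing notes, the authors trimmed reads with Trimmomatic, mapped them to mm10 with HISAT2 2.0.4 and assigned them to genes using featureCounts, multi-mapped reads excluded. The annotation release and strand setting are not given in the sources used here. The deposited table holds raw counts, 54838 genes by 12 libraries (10760132 to 11827487 per library). Symbols and positions came from GENCODE M21 on GRCm38, the assembly that mm10 names (54723 genes matched), and promoter windows from RefSeq.

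Counts were analysed in R 4.3.3 with edgeR 4.0.16: filterByExpr by group (minimum count 10), TMM factors and 1 quasi-likelihood model with 4 group means. P-values were adjusted by Benjamini-Hochberg over 15938 genes, and calls required an adjusted p under 0.05 together with a change of more than 0.8 log2 units either way (for the interaction and the slope on B cell markers, adjusted p alone). The SE is the size of the LFC divided by the square root of F. TPM used the length of merged exons. Exact permutation tests of 3 against 3 cannot go below p = 0.1 and were not used. Nothing in the labels ties the libraries of different groups to each other. P-values weigh each difference against the spread between mice within groups, which the model estimates over all 4 groups together. Which mice shared a cage is not given, and a difference between cages of different groups would not show in this spread. Counts are subject to counting error beside this spread, and total counts were similar in all libraries. All 12 pairs of replicates differed by more than sampling noise (chi-square per degree of freedom 8.30 to 45.3). The procedure was tested on simulated data.

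The 10 genes and the gene lists were chosen with earlier results of these data known. All 10 are named. Of the other lists, only genes called in a comparison are named, at most the 4 with the smallest adjusted p per list and comparison, together with 7 check genes and the 3 genes most like each member, of which 1 is not reported here. Examples of lists without calls (Chuk, Rela and others) and marker genes were named to describe the lists. Alternatives were DESeq2 1.42.0 (Wald test), RLE and upper-quartile factors, other filters on low counts, a replicate block, only the groups compared, the B cell marker score as a covariate, no cut-off on LFC, and each library left out. The mean effects over both backgrounds were added after seeing the data.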

Additional observations from a re-analysis of the deposited data

How the results depend on the processing

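Of the calls for the 10 genes, those of Bcl3, Nfkbia, Nfkbiz and Zc3h12a held under all alternatives except that of Zc3h12a for ZnSO4 in Dex mice, and those of Zfp36 and Nfkbie did not, with the values given above. The number reduced by Dex in water mice was 2. It became 3 with DESeq2, all genes of at least 1 count or at least 10 counts in every library, the B cell marker score or no cut-off. With single libraries left out it was 2 to 3. The number raised by Dex in ZnSO4 mice was 2 and became 1 (Nfkbia) with RLE factors, a replicate block, the B cell marker score or only the groups compared, and 1 to 2 with single libraries left out. The number reduced there was 1 and became 2 with DESeq2, all genes of at least 1 count or only the groups compared, 3 with no cut-off on the LFC, and 1 to 2 with single libraries left out. For ZnSO4 in Dex mice, the 1 gene reduced became 0 with upper-quartile factors or only the groups compared, and 0 to 2 with single libraries left out. No gene of the 10 was raised with both treatments, and 0 to 1 with single libraries left out. No gene of the 10 was raised by Dex in water mice, whereas the mean effect of Dex over water and ZnSO4 mice raised 2 at an adjusted p under 0.05 (Nfkbia and Zfp36), of which 1 (Nfkbia) passed the cut-off. The cause of these shifts was not tested. Nfkbie under Dex passed the test in water mice with DESeq2 (adjusted p = 0.0067), all genes of at least 1 count (0.018) or at least 10 counts in every library (0.049), and in ZnSO4 mice with DESeq2 (0.027), all genes of at least 1 count (0.044) or only the groups compared (0.033).

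Changes of sign were limited to LFC and slopes that passed no test. With the B cell marker score as a covariate they were 0.02 for Nfkbie under ZnSO4 in PBS mice, 0.28 for Nfkbie under ZnSO4 in Dex mice, 0.03 for Nfkb2 under Dex in water mice and 0.01 for Birc3 with both treatments. For Nfkbie under ZnSO4 in Dex mice the LFC was also 0.03 with upper-quartile factors, 0.05 with the replicate block and 0 with only the groups compared. With single libraries left out, the LFC under ZnSO4 in PBS mice ran from -0.56 to 0.37 for Nfkbie and -0.25 to 0.08 for Nfkb2, and in Dex mice from -0.26 to 0.05 for Nfkbia, -0.3 to 0.3 for Nfkbie and -0.02 to 0.4 for Zfp36. Under Dex it ran from -0.28 to 0.04 for Nfkb2 in water mice and -0.59 to 0.1 for Tnfaip3 in ZnSO4 mice. Interaction LFC ran from -0.38 to 0.56 for Nfkbie, -0.4 to 0.33 for Tnfaip3, -0.23 to 0.09 for Birc3 and -0.03 to 0.38 for Bcl3. Slopes on the B cell score ran from -0.01 to 0.09 for Tnfaip3, -0.02 to 0.04 for Zc3h12a and -0.01 to 0.08 for Zfp36, and the number of genes with a called slope was 0 to 1.

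No pairing of the mice by replicate number was seen, though a check on so few libraries could miss one. Residuals of same-numbered libraries had a median correlation of -0.056 over 18 pairs (-0.36 to 0.46), against 0.023 over 36 other pairs, and 4 of 12 libraries correlated best with their own number. With the replicate block, the Zfp36 call (adjusted p = 0.072) and the Nfkbie slope (0.21, adjusted p = 0.14) were lost, which left 0 genes with a slope. The adjusted p of LFC under the cut-off passed 0.05 with the block for Nfkbiz under Dex in water mice (0.058) and Zc3h12a under Dex in ZnSO4 mice (0.051). No scaling moved the median LFC of all genes by more than 0.051. Nfkbie, at 29 to 279 reads per library, is the gene whose values depth limits most.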
